A study of Rattus norvegicus with 18 samples.

Results

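The genes described here are the Ensembl rat genes whose RNA was strongly lower in the heart of the spontaneously hypertensive rat (SHR) than in the Wistar-Kyoto rat (WKY). A gene was included if it had an Ensembl identifier, was at 1 FPKM or more in 6 or more of 18 libraries, had a mean of log2(FPKM + 1) at least 1 lower in SHR than in WKY, and had all 6 SHR values below all 6 WKY values. FPKM is a fragment count corrected for the length of a gene and the size of a library. The rule found 71 genes, 0.573% of the 12396 Ensembl genes that passed the filter and a small part of the 37262 genes listed. The genes were thus chosen by the values of the 6 SHR and 6 WKY libraries, and the strain difference is given below as a description with no test. The same rule in the opposite direction found 81 Ensembl genes, and applied to genes of NONCODE, a catalogue of noncoding transcripts, it found 44.

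RNA of heart tissue was depleted of ribosomal RNA and sequenced in 3 groups of 6 libraries: WKY hearts, labelled normal, hearts of SHR that received NS, labelled hypertension, and hearts of SHR that received QDG. They are called WKY, SHR and QDG-treated SHR here. The labels expand neither NS nor QDG and do not state what WKY received, so that NS and strain cannot be told apart unless WKY received NS too. Nor is it stated that every library had an animal of its own, and p-values may then reflect only technical spread among the libraries. In whole-heart RNA, fewer cells of a type and less RNA per cell cannot be told apart.

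SHR was derived from Wistar-Kyoto stock by selection for high blood pressure, and its heart is known for hypertrophy and remodelling that follow the pressure. Inbred strains also carry different alleles at many loci that have no part in blood pressure. A comparison of RNA levels between strains measures the effects of such loci and of the diseased tissue together.

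None of the 71 identifiers could be paired with a gene symbol, because the reference used, of 47357 genes of the GRCr8 assembly, held no Ensembl identifiers of the rat. Whether the genes have symbols is thus left unknown here, and no sequence or function is given. The 2 genes with the most negative difference are given by identifier. The others are numbered from the most negative strain difference (gene 1) to the least (gene 71). Those described singly, apart from genes 1 and 2, were chosen after their values were seen. Gene lists and markers of heart cell types, which need symbols, were not tested.

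The summed FPKM of the libraries ranged from 598626 to 676288, and the absolute depth is unknown. WKY replicate 5 stood apart most often among the 71 genes: it was at least 1.5 times the median of the other 5 WKY libraries in 18 of them. The same bound within their own group was met in 4 to 9 genes by SHR libraries and in 2 to 11 by QDG libraries. Without WKY replicate 5 the rule found 67 genes, 66 of them among the 71, and the median strain difference of the 71 went from -1.27 to -1.25. It had the highest summed FPKM of all libraries. The part of its summed FPKM in the results was not tested.

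In WKY the 71 genes covered the range from low to abundant transcripts. Their mean WKY level had a median of 10.1 FPKM, beside 7.17 for all Ensembl genes that passed the filter. 3 genes had a WKY mean of 100 FPKM or more, 33 lay from 10 to 100, 11 from 5 to 10, and 24 under 5. Their summed share of a library's FPKM was 0.321% ± 0.0365 for WKY, 0.105% ± 0.00819 for SHR and 0.105% ± 0.0149 for QDG-treated SHR (SD over 6 libraries). Every SHR and QDG library, from 0.0842% to 0.125%, lay below the lowest WKY library at 0.277%. For SHR the rule largely fixed this, since it put every SHR value of a gene below every WKY value. The sum also leans on a few abundant genes, such as gene 20 with a WKY mean of 649 FPKM, and does not describe the typical gene.

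The strain difference had a median of -1.27 on the log2(FPKM + 1) scale and had -3.49 as its most negative value, with 23 genes at -1.5 or below and 9 at -2 or below. Over all Ensembl genes that passed the filter the median was 0.00. Measured as FPKM, the SHR mean was a median 29.1% of the WKY mean. The percentage was 32% for the 3 most abundant genes, 36.3% for those from 10 to 100 FPKM, 29.1% for those from 5 to 10 and 15.6% for those under 5 (medians). Since adding 1 compresses low values, a gene of low level needed a larger relative loss to meet the rule. A further 42 Ensembl genes had an SHR mean at or under 50% of the WKY mean with no overlap but did not reach -1, and their median WKY level was 2.40 FPKM.

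The gap between the groups was wide for most genes. In 43 of the 71 the lowest WKY library was at least 2 times the highest SHR library, and the median ratio was 2.29. In 4 genes that ratio was under 1.2, the smallest being 1.02 in gene 68.

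Just inside the rule lay genes with differences of -1.004, -1.010 and -1.019. Their WKY and SHR means were 3.47 and 1.24, 9.24 and 4.04, and 36.1 and 17.3 FPKM. Just outside lay genes with -0.983, -0.980 and -0.978, whose means were 13.7 and 6.55, 5.03 and 2.06, and 5.02 and 2.06 FPKM. 8 Ensembl genes reached -1 but had overlapping groups, and 1 met the rule except for the filter on low values.

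**Figure D1:**
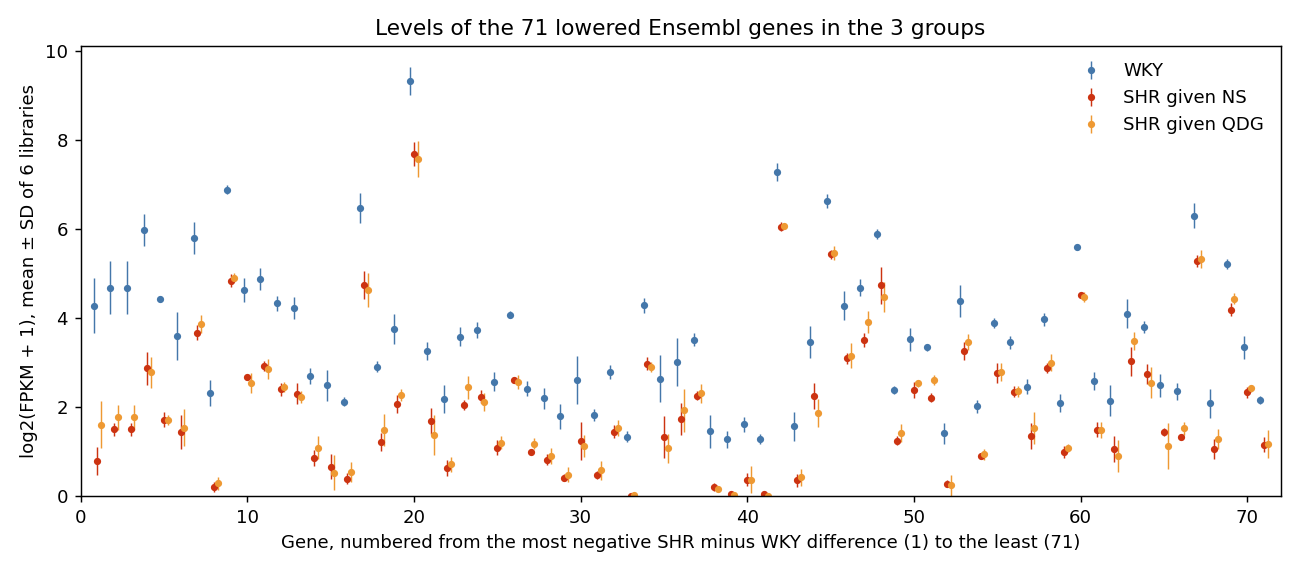
Mean level of each of the 71 genes as log2(FPKM + 1) (vertical axis) against its number in order of the strain difference (horizontal axis), by group (WKY, SHR with NS, SHR with QDG). Points are means and bars the SD of 6 libraries; for nearly all genes the SHR and QDG points lie close together, with a median distance of 0.11 in either direction, under the WKY point.

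The most lowered gene was ENSRNOG00000009106 (gene 1). In WKY it ranged from 12.3 to 34 FPKM with a median of 16.9, in SHR from 0.367 to 1.36 with a median of 0.656, and in QDG-treated SHR from 0.715 to 3.39 with a median of 2.32. The lowest WKY library was 9.02 times the highest SHR library. The WKY libraries themselves spread widely, with 3 between 12.3 and 12.9 FPKM and the other 3 between 21 and 34. The mean was 19.9 ± 9.09 for WKY, 0.761 ± 0.389 for SHR and 2.22 ± 1.07 for QDG-treated SHR (SD over 6 libraries).

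ENSRNOG00000059394 (gene 2) ranged from 18.1 to 56.8 FPKM in WKY (median 21.9), from 1.42 to 2.26 in SHR (median 1.85) and from 1.67 to 3.64 in QDG-treated SHR (median 2.32). WKY replicate 5 held the 56.8, and the other 5 WKY libraries lay at 18.1 to 23.1. Gene 3 had the same deposited value as gene 2 in 17 of the 18 libraries and a ratio of 1.04 in the remaining one. Neither strand nor the handling of shared reads is stated for the counting, and genes 2 and 3 cannot be taken as separate measurements.

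Gene 5 had the smallest spread in WKY among the 9 genes at -2 or below. It lay at 18.8 to 21.5 FPKM there (median 20.9), at 2 to 3.10 in SHR (median 2.15) and at 2.01 to 2.56 in QDG-treated SHR (median 2.32). Gene 9, one of the 3 abundant genes, had values of 107 to 128 FPKM in WKY (median 115), 25.1 to 33.4 in SHR (median 26.2) and 26.3 to 31.2 in QDG-treated SHR (median 29.7). In both genes the SHR and QDG ranges overlapped and neither came near WKY. Gene 42, another abundant one, kept more of its level: 118 to 175 FPKM in WKY (median 159), 56.8 to 70.2 in SHR (median 65.4) and 63.1 to 69.4 in QDG-treated SHR (median 66.7).

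3 genes of low level in WKY were close to absent in both SHR groups. Gene 33 lay at 1.27 to 1.84 FPKM in WKY, was listed at 0 in 4 of 6 SHR libraries with a highest value of 0.0157, and reached at most 0.0360 in QDG-treated SHR. Gene 39 lay at 1.06 to 1.90 FPKM in WKY, at 0.00771 to 0.0408 in SHR and at 0 to 0.0752 in QDG-treated SHR. Gene 41 lay at 1.25 to 1.64 FPKM in WKY, at 0 to 0.123 in SHR and at 0 to 0.0318 in QDG-treated SHR, where 4 of 6 libraries listed it at 0. An exact 0 in values of this kind may also be a failed estimate, and no fold is given. In all, 12 of the 71 genes passed the filter on low values through the WKY libraries only and so had to differ to be counted, while 41 were at 1 FPKM or more in all 18 libraries.

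**Figure D2:**
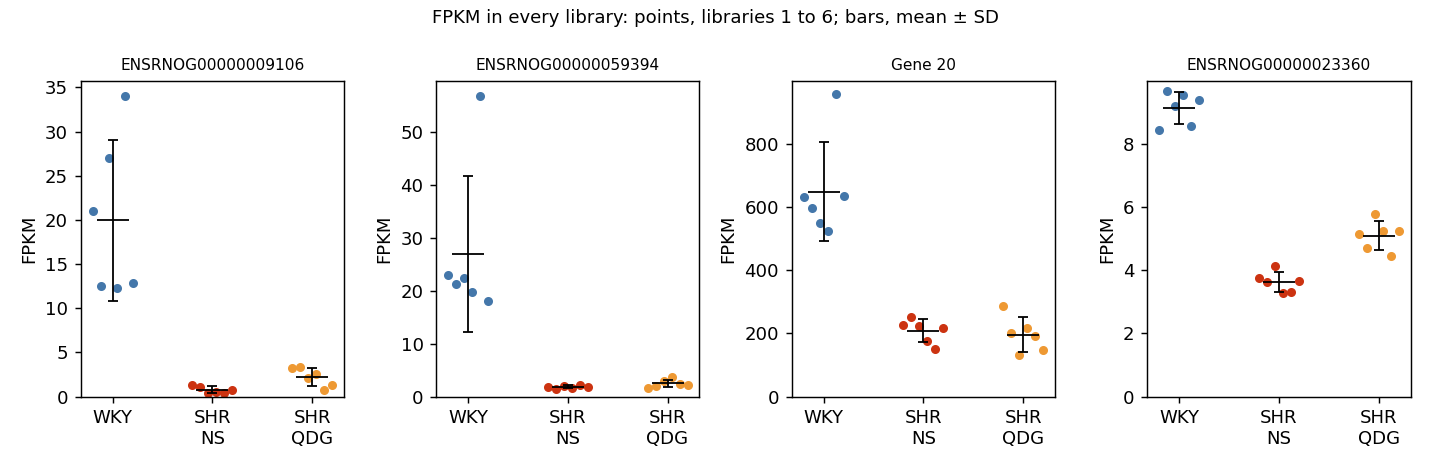
FPKM (vertical axes, each from 0) in every library of the 3 groups for genes 1 and 2 (by identifier), gene 20 and the gene called after treatment, ENSRNOG00000023360. Points are libraries 1 to 6 from left to right, the bars mean ± SD; in the first 3 panels WKY replicate 5 is the highest point, and in the last the QDG libraries (4.46 to 5.80) lie between SHR (3.27 to 4.14) and WKY (8.45 to 9.68).

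Several of the genes rose and fell together from library to library inside the groups. Correlation of the deviations from the group means over the 18 libraries, on log2(FPKM + 0.1), reached 0.85 in 8 of 2485 pairs of the 71 genes. These libraries share depth and scaling, and the value is a description. The pairs joined genes 2 and 3 (1.00), genes 4, 17 and 20 (0.88 to 0.98), genes 30 and 35 (0.96), genes 7 and 53 (0.91), and genes 25, 32 and 54 (0.87 for genes 32 and 54, 0.88 for genes 25 and 32).

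Gene 20 was the most abundant of the 71. It ranged from 524 to 958 FPKM in WKY (median 615), from 151 to 251 in SHR (median 221) and from 131 to 288 in QDG-treated SHR (median 196). Gene 17 ranged from 71.7 to 138 FPKM in WKY (median 84.2), from 18.4 to 31.2 in SHR (median 28.1) and from 16.4 to 34.5 in QDG-treated SHR (median 24.7). Both were highest in WKY replicate 5 among WKY and in replicate 1 among the QDG libraries, and lowest in replicate 5 among SHR. The ratio of gene 20 to gene 17 varied little within groups, at 7.26 ± 0.210 in WKY, 7.95 ± 0.599 in SHR and 8.01 ± 0.256 after QDG (SD over 6 libraries). The WKY ratios, 6.94 to 7.54, overlapped those of SHR, 7.2 to 8.63, but not those after QDG, 7.66 to 8.35.

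Gene 4 followed genes 17 and 20 within groups but was lowered further between strains. It ranged from 46.8 to 99.3 FPKM in WKY (median 58.1), from 4.28 to 8.86 in SHR (median 6.59) and from 4.04 to 8.92 in QDG-treated SHR (median 5.71). The ratio of gene 17 to gene 4 was 1.42 ± 0.124 in WKY, 4.13 ± 0.408 in SHR and 4.07 ± 0.460 after QDG (SD over 6 libraries). The WKY ratios, 1.28 to 1.56, did not overlap those of SHR, 3.5 to 4.6. Genes 7 and 53 likewise moved together within groups but were lowered unequally. Gene 7 ranged from 45 to 82 FPKM in WKY (median 48), from 9.68 to 14 in SHR (median 11.6) and from 11.2 to 16.7 in QDG-treated SHR (median 13.3). Gene 53 ranged from 15.9 to 29.7 FPKM in WKY (median 18), from 6.39 to 10.1 in SHR (median 8.7) and from 8.41 to 12 in QDG-treated SHR (median 10.2). The ratio of gene 7 to gene 53 was 2.58 to 2.84 across WKY libraries, 1.28 to 1.51 across SHR and 1.13 to 1.6 after QDG.

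**Figure D3:**
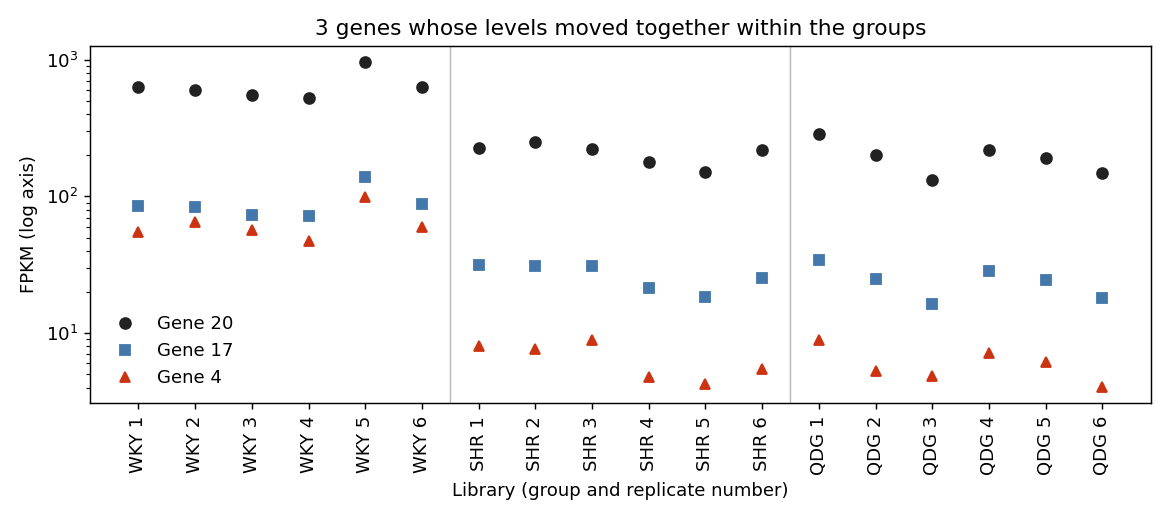
FPKM of genes 20, 17 and 4 (log axis) in each of the 18 libraries, ordered by group. The 3 symbols move up and down together within a group, and the distance between genes 17 and 4 is wider in both SHR groups (mean ratios of 4.13 and 4.07) than in WKY (1.42).

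Genes 30 and 35 had equal values in 5 libraries. Their WKY values ran from 3.01 to 11 and from 3.01 to 11.1 FPKM, with the highest in WKY replicate 5 for both. Genes 32 and 54 kept a ratio of 1.63 to 2.31 in all 18 libraries. Whether either pair shares reads was not tested. Where 2 identifiers share reads, the counting can split them, and their separate levels are then uncertain.

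The 18 genes in which WKY replicate 5 was at least 1.5 times the median of the other WKY libraries made up 25.4% of the 71, while 5.45% of all Ensembl genes that passed the filter met that bound in this library. The other WKY libraries met it in 0 to 4 of the 71 genes, SHR libraries in 4 to 9 and QDG libraries in 2 to 11. QDG replicates 2 and 4 each met it in 15.5% of the 71, while 1.31% and 4.4% of all Ensembl genes that passed the filter did. An excess over all Ensembl genes was thus not particular to WKY replicate 5. In 7 genes, among them genes 1 and 2, WKY replicate 5 was at least 2 times the median of the others. Without this library, 15 of the 18 genes still had a strain difference of -1 or below, and the 18 ranged from -3.32 to -0.92. The SD of log2(FPKM + 1) was smaller in SHR than in WKY for 57 of the 71 genes and for 64.7% of all Ensembl genes that passed the filter. The rule chose the 71 for low SHR values, where adding 1 shrinks this SD. The 57 are thus a description and no measure of a narrower spread in SHR.

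**Figure D4:**
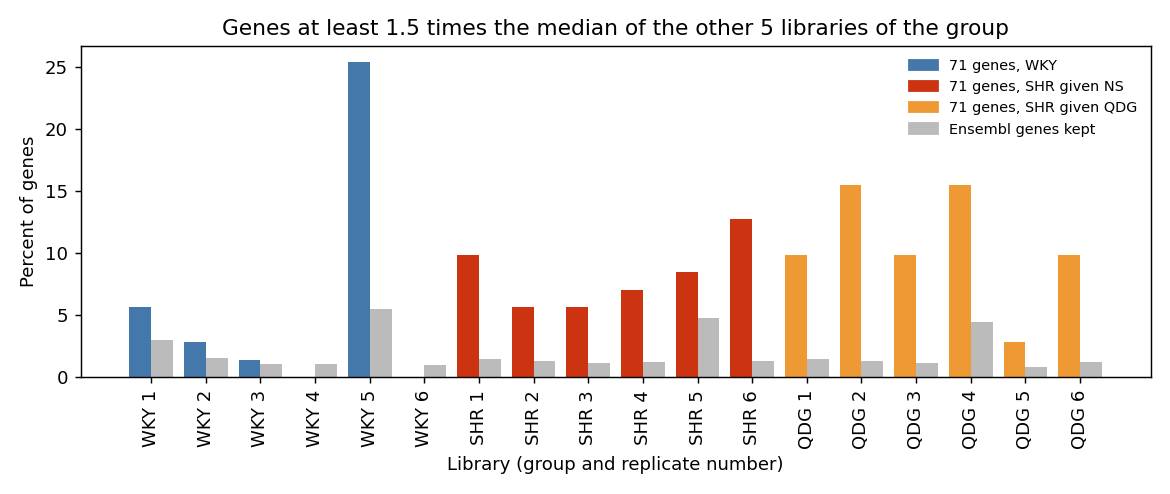
Percent of genes (vertical axis) whose value in a library was at least 1.5 times the median of the other 5 libraries of its group, for the 71 genes (coloured bars, by group) and for all Ensembl genes that passed the filter (grey bars). WKY replicate 5 reached 25.4% of the 71 genes against 5.45% of all Ensembl genes. The next highest were QDG replicates 2 and 4, at 15.5% of the 71 genes.

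The comparison of QDG-treated SHR with SHR given NS asked whether treatment moved these genes. Only 1 of the 71 passed, ENSRNOG00000023360 (gene 51), which was higher after QDG. It ranged from 8.45 to 9.68 FPKM in WKY (median 9.30), from 3.27 to 4.14 in SHR (median 3.65) and from 4.46 to 5.80 in QDG-treated SHR (median 5.20), so that all 6 QDG libraries lay above all 6 SHR libraries and below all 6 WKY libraries. Its mean was 3.63 ± 0.315 in SHR and 5.10 ± 0.469 after QDG (SD over 6 libraries), a difference of 0.40 in log2(FPKM + 1) with an SE of 0.06 (limma adjusted p = 0.00406). At 55.8% of the WKY mean it remained lower than WKY, by a difference of -0.74. Over all 17397 genes tested, 0.207% were called higher and 0.0862% lower after QDG, beside 1 higher and 0 lower among the 71. The SHR libraries entered both this comparison and the choice of the genes, so the QDG difference is not independent of the rule.

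At an unadjusted p under 0.05 lay 9 of the 71 genes, 8 of them higher after QDG, and 1817 of all genes tested (10.4%). The split by direction was not taken over all genes tested. Since the rule chose genes by their low values in the same SHR libraries, the 8 are a description. A lean after treatment and the effect of that choice cannot be told apart from them. Gene 1 had the largest difference, 0.82 (SE 0.27, limma adjusted p = 0.267), with 4 of 6 QDG libraries above the highest SHR library. As its SHR values are low, the difference was 1.38 with a pseudocount of 0.1 in place of 1. Gene 47 lay at 8.39 to 11.6 FPKM in SHR (median 10.7) and at 11.5 to 19.1 in QDG-treated SHR (median 14.3), with 20.7 to 30.9 in WKY (median 24.1). Its difference after QDG was 0.41 (SE 0.11, limma adjusted p = 0.124). Gene 23 had the same difference, 0.41 (SE 0.11, limma adjusted p = 0.153), with 2.71 to 3.62 FPKM in SHR and 3.35 to 5.99 in QDG-treated SHR. The QDG ranges of both genes overlapped SHR by 1 QDG library each, the lowest.

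Gene 63 lay at 5.08 to 9.99 FPKM in SHR and at 8.20 to 11.8 in QDG-treated SHR, a difference of 0.44 (SE 0.15, limma adjusted p = 0.295). Gene 69 lay at 14.1 to 18.7 and 18.9 to 23.7 FPKM in these groups, which did not overlap, with a difference of 0.24 (SE 0.07, limma adjusted p = 0.2). All QDG values above all SHR values were found in 2 of the 71 genes, genes 51 and 69, and in 0.833% of all genes tested. The 1 gene in the other direction at an unadjusted p under 0.05 was gene 44, at 2.73 to 5.37 FPKM in SHR and 1.93 to 3.53 in QDG-treated SHR (difference -0.38, SE 0.17, limma adjusted p = 0.441).

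For most of the 71 the 2 SHR groups lay close together on the log2(FPKM + 1) scale. Over all 71 the median difference after QDG was 0.06 on the log2(FPKM + 1) scale, beside 0.01 over all Ensembl genes that passed the filter. In 58 of the 71 the groups differed by less than 0.25 on this scale in either direction. That share was not taken over all genes tested, and 13 of the 71 had all SHR values under 1 FPKM, where differences on this scale are compressed. The QDG mean was above the SHR mean in 45 genes and below it in 26; over all Ensembl genes that passed the filter it was above in 56.2%. For 57 of the 71 genes the 95% confidence interval of the difference lay within 0.58, the log2 of 1.5, and for 70 within 1. Over all genes tested the first share was 92.3%. The exception to the wider bound was gene 1, whose interval ran from 0.25 to 1.40. Because 1 was added to FPKM, 0.58 is no 1.5-fold bound for genes of low level. Gene 41 was among the 57 with an interval of -0.20 to 0.11, although its mean fell from 0.039 to 0.00698 FPKM after QDG. Whether the low genes changed 1.5-fold in FPKM was thus not tested.

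**Figure D5:**
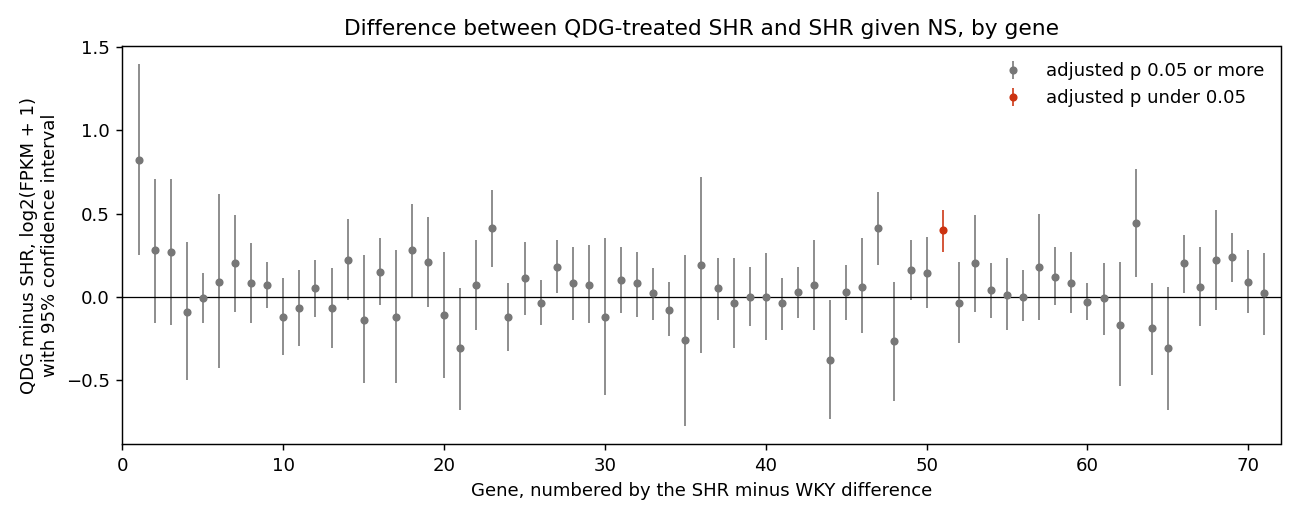
Difference in log2(FPKM + 1) between QDG-treated SHR and SHR given NS (vertical axis, with 95% confidence interval from limma) for each of the 71 genes in order of the strain difference (horizontal axis). Gene 51, in red, is the gene with an adjusted p under 0.05; gene 1 has the largest difference, 0.82, and a wide interval.

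Set against WKY, the QDG-treated hearts had a median of 2.47 FPKM for the mean level of these genes, beside 10.1 in WKY and 2.27 in SHR. The QDG libraries entered the choice of the 71 genes only through the filter on low values, whereas the WKY libraries also set the direction. All 71 were called lower in QDG-treated SHR than in WKY (limma, adjusted p under 0.05), against 9.2% of all genes tested. The 12 genes that passed the filter through WKY only had to be low in QDG. The other 59 had at least 1 library outside WKY at 1 FPKM or more, and all were called. They are not free of the filter either. Genes 14, 15, 28 and 54 had 4, 2, 2 and 2 such libraries, and reached 6 only with WKY. In 70 of the 71, and in 58 of these 59, all 6 QDG values lay below all 6 WKY values, against 4.59% of all genes tested. The exception was gene 36, where the highest QDG library had 4.54 FPKM and the lowest WKY library 4.50, while WKY replicate 5 had 15. Since the WKY values in both counts are those that chose the genes, the counts are a description and the shares of all genes tested are no measure of chance for them. With QDG in place of SHR, 56 of the 71 genes met the same rule. The share of all Ensembl genes meeting it with QDG was not taken, and the WKY values are again those that chose the genes. The 56 are thus a description too.

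The QDG difference from WKY had a median of -1.27 and ran from -3.19 to -0.62. The QDG mean was a median 27.9% of the WKY mean, beside 29.1% for SHR. In 5 genes it was above 50%, the highest being 62.0% in gene 63, followed by 57.7% in gene 47, 57.1% in gene 69 and 55.8% in gene 51. For gene 1 the SHR mean was 3.81% and the QDG mean 11.1% of the WKY mean. For gene 20, the most abundant, these were 32% and 30.2%.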

How the data were processed

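The values the authors deposited were read as FPKM, a unit inferred from the numbers (not whole, with sums that differ between libraries) because no header states it. Trizol RNA, rRNA depletion and a NEB library kit are stated per the labels' protocols, and limma without a version per the submitters' processing notes. For aligner, counter, build, annotation and strand, nothing is stated (not given in the sources used here).

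Groups and replicate numbers came from the sample titles. The 17397 genes at 1 FPKM or more in 6 or more of 18 libraries entered limma 3.58.1 as log2(FPKM + 1) (R 4.3.3, statmod 1.5.0), with intensity trend, robust moderation and 1 mean per group over all libraries, two-sided, with Benjamini-Hochberg adjustment over all genes tested. The script was tested on simulated data. Summaries used Python 3.11.15. A pseudocount of 1 understates changes of low genes. Absolute depth is unknown.

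The genes and lists were chosen with earlier results of these data known. The naming rule needed symbols, so only the 2 identifiers with the most negative difference were named by it. ENSRNOG00000023360 was added after its values were seen. Alternatives were other scalings, filters, a pseudocount of 0.1, limma settings, a replicate block and each library left out.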

Additional observations from a re-analysis of the deposited data

Results flagged for a closer look

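Of 54 groups of 6 values checked (17 of the genes described singly in 3 groups, and the summed share of FPKM), 9 held a library far from the other 5. Chance gives about 1 in 20 for unselected and separate groups, which these were not. Most of the genes were chosen after their values were seen, and genes 4, 17 and 20, and genes 30 and 35, moved together. The 9 are thus a description. WKY replicate 5 was the library in 7 of the 9, with 56.8 FPKM in gene 2, 99.3 in gene 4, 138 in gene 17, 958 in gene 20, 11 in gene 30, 11.1 in gene 35 and 15 in gene 36. SHR replicate 2 had 3.10 FPKM in gene 5, where the other SHR libraries were at 2 to 2.4. SHR replicate 4 had 14.1 FPKM in gene 69, where the other SHR libraries were at 17.3 to 18.7. Over all 71 genes, 24 of 213 groups (11.3%) held such a library, and WKY replicate 5 accounted for 11.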

How the results depend on the processing

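The rule found 111 genes with a pseudocount of 0.1, all 71 among them, since low values are compressed less, and 40 with a filter at 5 FPKM, which removes the low genes. Scaling moved the number little: 69 of the 71 remained with median centring and 68 with quantile normalization. With a single WKY or SHR library omitted the rule found 67 to 76. With the filter at 5 FPKM, 40 of the 71 were tested; 40 were called lower in QDG than in WKY and 40 had no overlap. In each of the other settings run all 71 were called against WKY, and 70 to 71 had no overlap with 1 library left out. For QDG against SHR the number called was 1 in each of 21 alternatives, ENSRNOG00000023360 each time, with a difference of 0.36 to 0.48 and limma adjusted p from 0.00297 to 0.0266. The median QDG difference ranged from 0.03 to 0.07. None of the other 7 genes tested singly under these alternatives (genes 1, 2, 23, 44, 47, 63 and 69) reversed or passed, but the difference of gene 1 went from 0.82 to 1.38 with a pseudocount of 0.1. Replicate numbers were shared between groups, but did not pair the libraries throughout: correlations of same-numbered deviations were 0.13 to 0.19 for replicate 5, the number of the WKY library that stood apart, and -0.06 to 0.11 for the others (5 of 18 libraries correlated best with their own number); a replicate block gave 1 gene called for QDG against SHR and 71 for QDG against WKY. Low genes are limited by the unknown depth.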
